A study of Sinonovacula constricta with 9 samples.

Results

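The unigenes described here had a rounded count of 0 in every library made at 25 psu, and of at least 1 in each of the 6 libraries made at 5 and 15 psu. A unigene is a transcript sequence of the deposited tables, listed under a numbered cluster identifier without a gene name. Of 246672 unigenes, 263 met the rule: a rounded count of 0 in all 3 libraries at 25 psu, at least 1 in each of the other 6, a mean of at least 3 over those 6, and a sum under 300 over all 9. The members were chosen by the counts of all 9 libraries, so their zeros at 25 psu are a description and are not tested.

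The libraries came from total RNA of whole juvenile razor clams (Sinonovacula constricta) on day 15 after fertilization. Before extraction the clams spent 6 h in water of low salinity (5 psu), of the control salinity that the submitters call optimal (15 psu) or of high salinity (25 psu), with 3 libraries at each salinity. The practical salinity unit (psu) corresponds roughly to grams of salt per kilogram of water. No strain, sex or number of animals per library is given in the labels, and nothing says whether the 3 libraries at a salinity stem from separate cultures. The spread between libraries may therefore be technical, and p-values measure that spread alone.

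The razor clam is a bivalve that burrows in estuarine mudflats, where tides and rain change the salinity. Marine and estuarine bivalves are osmoconformers: their body fluids follow the salinity of the water, and their cells adjust volume mainly by gaining or losing free amino acids, other small organic solutes and ions. An assembly made from reads alone can list alleles, splice forms and copies of 1 gene as separate unigenes, and a low count can stand for a rare transcript or for a fragment of one. Since whole animals were extracted, fewer cells of a type and less RNA per cell cannot be told apart. No annotation pairs the identifiers with genes, so no functions, positions or sequences are given.

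Total estimated counts lay between 15897903 and 18427234 per library, and between 15897903 and 17257637 at 25 psu. Over the whole table, unigenes with at least 1 count numbered 153184 to 162981 at 5 psu, 157316 to 160052 at 15 psu and 145327 to 151317 at 25 psu, lowest in the 3 libraries at 25 psu. With every library thinned to the lowest total, these ranges were 152676 to 159229 at 5 psu, 155672 to 156453 at 15 psu and 145002 to 149039 at 25 psu. The fragment length that count and FPKM imply differed as well, with library offsets in effective length of -4.05 to 6.27 nucleotides at 5 psu, -2.51 to 11.4 at 15 psu and -6.33 to -4.43 at 25 psu. The part of the fragment length in the silence of these unigenes was not tested.

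The 263 unigenes were low in abundance throughout. Their mean over the 6 libraries at 5 and 15 psu had a median of 4.67 counts (interquartile range 3.58 to 7.42), and the highest mean was 43.7. In 141 of them the mean was under 5, and in 40 it was 10 or more. Counts in a library at 5 or 15 psu were between 1 and 85, with a median of 5. Together they made up 0.00829 to 0.0131% of the counts of a library at those salinities.

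The sum of all members, in CPM (counts scaled to library sizes that carry TMM factors), averaged 124 ± 17.4 at 5 psu and 93.3 ± 11.1 at 15 psu (SD, n = 3 each). By library it was 144, 118 and 111 CPM at 5 psu and 85.6, 88.3 and 106 CPM at 15 psu, so every library at 5 psu lay above every library at 15 psu. The gap between the lowest library at 5 psu and the highest at 15 psu was smaller than the SD of either group.

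The same rule was applied to the other salinities and to every other choice of 3 libraries. It found 95 unigenes silent at 5 psu, 49 silent at 15 psu and the 263 silent at 25 psu. With every library thinned to the lowest total these numbers were 108, 49 and 241. Over the 83 other choices the number lay between 25 and 111, with a median of 54. Among the 18 choices with 2 libraries at 25 psu it lay between 52 and 111 (median 83), among the 45 with 1 such library between 25 and 110 (median 49), and among the 20 with none between 31 and 95 (median 47). The libraries are the same 9 in all of these choices, so the counts are not independent of each other and are given as a description.

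**Figure D1:**
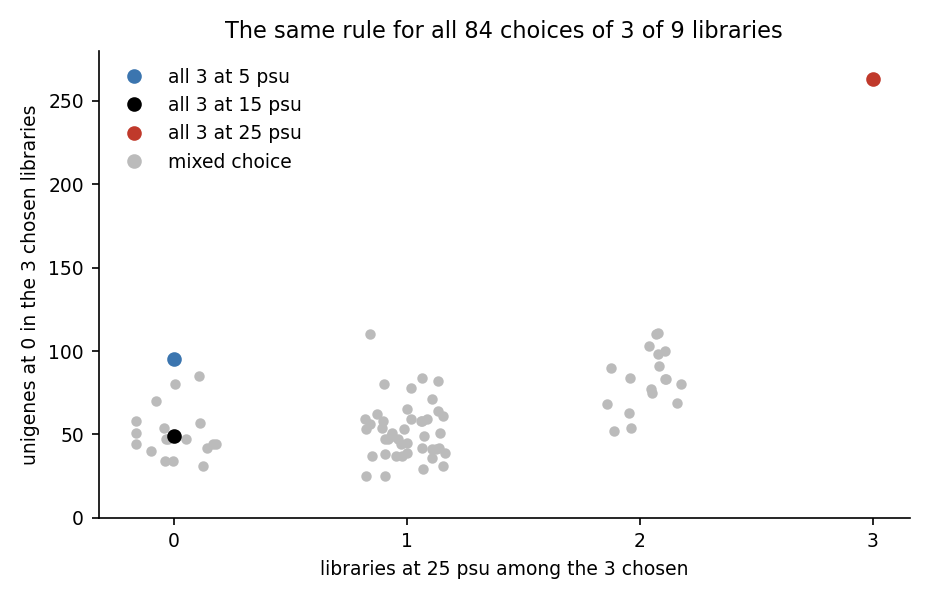
Number of unigenes at 0 in the 3 chosen libraries and present in the other 6 (vertical axis), for all 84 choices of 3 of 9 libraries, by how many of the chosen libraries were made at 25 psu (horizontal axis). Each point is 1 choice; the choice of all 3 libraries at 25 psu gave 263, and no other gave more than 111.

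The higher number at 25 psu was present at each level of abundance. For unigenes that met the 6-library part of the rule with a mean of 3 to 5 counts elsewhere, 52 of 9391 (0.554%) were silent at 5 psu, 24 of 9420 (0.255%) at 15 psu and 141 of 9996 (1.41%) at 25 psu. With a mean of 5 to 10 counts, 29 of 14642 (0.198%) were silent at 5 psu, 17 of 14647 (0.116%) at 15 psu and 82 of 15396 (0.533%) at 25 psu. Both classes had the same order of salinities. With 10 to 20 counts the numbers were 10 of 14193 (0.0705%) at 5 psu, 6 of 14097 (0.0426%) at 15 psu and 28 of 14799 (0.189%) at 25 psu. In the class of 20 to 50 counts, 4 of 16984 (0.0236%) were silent at 5 psu, 2 of 16779 (0.0119%) at 15 psu and 12 of 17278 (0.0695%) at 25 psu. In each class the share was highest at 25 psu and lowest at 15 psu, and it fell as the level elsewhere rose. Over all classes 263 of 57469 (0.458%) were silent at 25 psu.

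**Figure D2:**
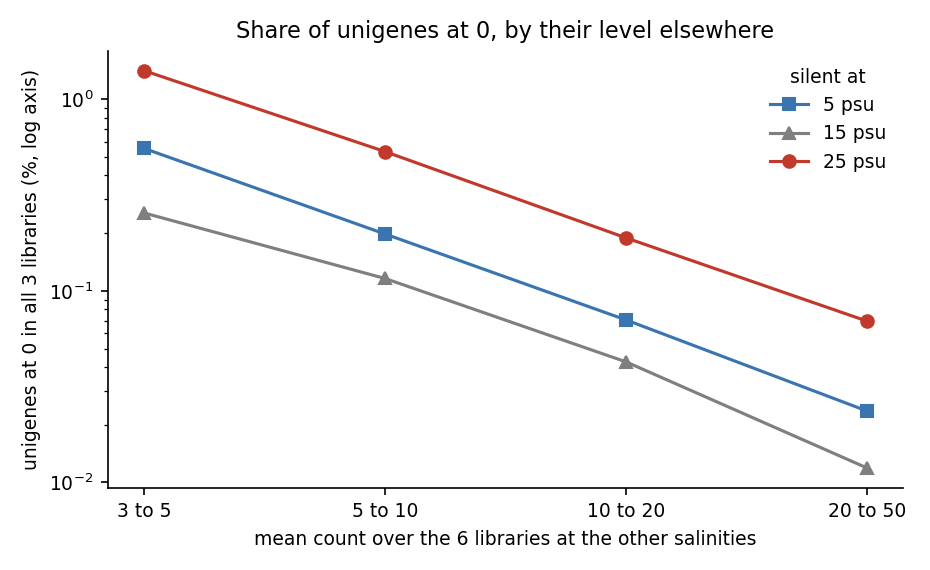
Share of unigenes at 0 in all 3 libraries of a salinity (percent, log axis) against their mean count over the 6 libraries at the other salinities, in 4 classes. Squares are unigenes silent at 5 psu, triangles at 15 psu and circles at 25 psu; the circles lie highest in every class, at 1.41% in the lowest class and 0.0695% in the highest.

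Silence at 25 psu shaded into low counts without a gap. Of the 57469 unigenes, 263 had a summed count of 0 over the 3 libraries at 25 psu, 366 had 1, 587 had 2 and 742 had 3. The same sums of 0, 1, 2 and 3 held for 95, 151, 253 and 358 unigenes at 5 psu and for 49, 64, 131 and 232 at 15 psu. A count of 0 over 3 libraries allows up to 3 counts in all, which corresponds to 0.0628 CPM at 25 psu and covers counting error only. The members were picked for their zeros, so the floor is no strict limit for them. Among the 263, 6 had a deposited estimate above 0 in 1 library at 25 psu that rounded to 0, the highest being 0.44 in Cluster-8005.118339.

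At the lower edge of the rule, Cluster-23770.0 (2, 2 and 4 counts at 5 psu and 4, 2 and 4 at 15 psu) and Cluster-29525.0 (3, 6 and 1 counts at 5 psu and 3, 4 and 1 at 15 psu) were members with a mean of 3. Just outside it were Cluster-21889.0 (3, 3 and 4 counts at 5 psu and 1, 2 and 4 at 15 psu) and Cluster-33800.0 (5, 1 and 7 counts at 5 psu and 2, 1 and 1 at 15 psu), with a mean of 2.83. At the upper edge 1 unigene alone was left out by its sum. That was Cluster-8005.108415, with 63, 76 and 79 counts at 5 psu, 38, 79 and 45 at 15 psu and 0 in every library at 25 psu.

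The 10 members with the largest summed count all belonged to Cluster-8005, the assembly cluster that holds 178061 unigenes (72.2% of all). The bounds that follow set the 3 libraries at 25 psu to the floor of 3 counts. Because the members were chosen for their zeros there, these bounds may overstate the fall. They are a description, here and for the members named further below. Cluster-8005.147497 had 54, 78 and 23 counts at 5 psu, 12, 76 and 19 at 15 psu and 0 in each library at 25 psu, at least 31.6-fold lower at 25 than at 15 psu. Cluster-8005.65693 had 68, 63 and 13 counts at 5 psu and 31, 11 and 59 at 15 psu, and was at least 31.9-fold lower at 25 than at 15 psu. Within each of those 2 salinities both unigenes varied several-fold between libraries, and their libraries at 5 and 15 psu overlapped.

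Cluster-8005.63386 had the highest bound against 15 psu, at least 40.7-fold, with 22, 35 and 21 counts at 5 psu and 33, 42 and 57 at 15 psu. Cluster-8005.145571 had 39, 45 and 23 counts at 5 psu and 36, 23 and 52 at 15 psu. Cluster-8005.68889 had 42, 19 and 43 counts at 5 psu and 22, 17 and 59 at 15 psu. In all 3 of these the libraries at 5 and 15 psu overlapped, and their bounds against 15 psu were 40.7, 34.7 and 30.6. Cluster-8005.160596 had 32, 2 and 28 counts at 5 psu and 35, 18 and 47 at 15 psu, with 1 library at 5 psu close to the values seen at 25 psu. Cluster-8005.121949 had 47, 35 and 18 counts at 5 psu and 9, 26 and 9 at 15 psu, and Cluster-8005.170132 had 18, 23 and 18 at 5 psu and 31, 15 and 25 at 15 psu. The last was the steadiest of the 10 at 5 psu, at 1.19 ± 0.226 CPM (SD, n = 3). Over all members the bound against 15 psu had a median of 3.95-fold (interquartile range 2.79 to 5.91) and that against 5 psu a median of 5.17-fold (interquartile range 3.70 to 8.17, over all but 1 member with too few counts at 5 psu).

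**Figure D3:**
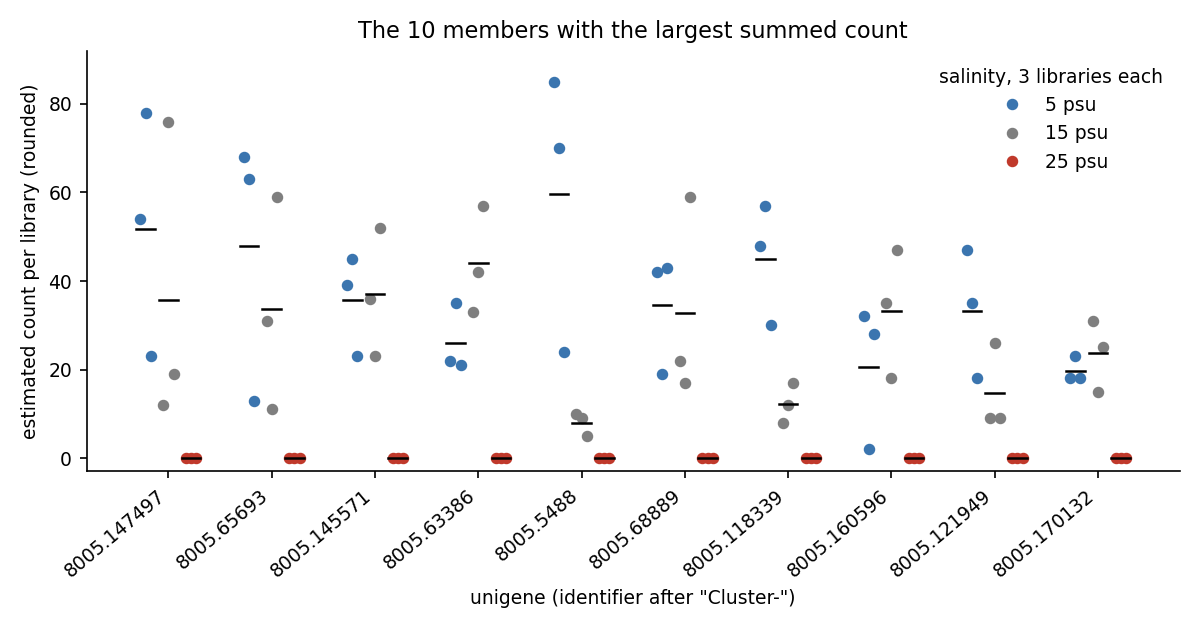
Rounded estimated counts per library (vertical axis) for the 10 members with the largest summed count, at 5, 15 and 25 psu from left to right within each unigene. Each point is 1 library and each bar the mean of 3; all points at 25 psu are at 0, while the highest point, 85 counts, belongs to Cluster-8005.5488 at 5 psu.

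The rule treats the libraries at 5 and 15 psu alike, so the comparison of 5 with 15 psu is the salinity contrast that it did not use. It asked whether unigenes silent at high salinity also differed between low salinity and the control. Of the 263 members, 47 had enough counts to be tested in a fit of all unigenes, and 216 did not. By edgeR's quasi-likelihood test, with an adjusted p (Benjamini-Hochberg) under 0.05, 1 of the 47 rose at 5 psu and 0 fell, where 1.26% of all 71915 unigenes tested rose and 1.6% fell. Entry to the test depended on the difference tested: a member needed the CPM equivalent of 10 counts in 3 libraries, and since all were at 0 at 25 psu, 33 of the 47 would not have passed without the libraries at 5 psu and 17 would not have passed without those at 15 psu. The 9 members with an unadjusted p under 0.05 were all higher at 5 psu. At that threshold 6.62% of all unigenes tested were higher and 8.07% lower. Of the 9 members, 8 had reached the filter in the libraries at 5 psu alone. The counts among the 47 are therefore a description, and nothing is read from them. In the fit that kept low counts, all 263 members were tested; 3 were called higher at 5 psu and 0 lower, against 0.99% of all unigenes called in either direction. DESeq2's Wald test called the same member as edgeR did, where 4.52% of all unigenes were called in either direction, and limma-voom called another, Cluster-8005.118339 (adjusted p = 0.0473), where 2.89% were.

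The member that rose was Cluster-8005.5488. It held 85, 70 and 24 counts at 5 psu, 10, 9 and 5 counts at 15 psu and 0 in each library at 25 psu. All 3 libraries at 5 psu lay above all 3 at 15 psu, with replicate 3 at 5 psu well below the other two, and the unigene reached the filter through the 3 libraries at 5 psu alone. At 5 psu its level was 3.76 ± 2.29 CPM, against 0.464 ± 0.158 CPM at 15 psu (SD, n = 3 each), a log2 fold change of 2.99 (SE 0.61, edgeR adjusted p = 0.0475). Its implied effective length was 54.2 nucleotides, which is among the 4 shortest of the list. The call was lost under limma-voom (log2 fold change 2.67, adjusted p = 0.237) and when any 1 of 8 libraries was left out. With only the 6 libraries at 5 and 15 psu in the fit, the call was lost as well, and Cluster-23216.0 was called instead (edgeR adjusted p = 0.0333). The call of Cluster-8005.5488 held without replicate 3 at 5 psu (log2 fold change 3.42, edgeR adjusted p = 0.00652). Over 19 alternatives that tested it, 8 kept the call, and the adjusted p lay between 0.00137 and 0.237.

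Cluster-8005.118339 was the other of the 10 with no overlap between 5 and 15 psu. It had 48, 57 and 30 counts at 5 psu against 8, 12 and 17 at 15 psu, a log2 fold change of 1.94 (SE 0.44) that missed the threshold (edgeR adjusted p = 0.0698). Over the 18 alternatives that gave it an adjusted p, the value lay between 0.0156 and 0.228, and 4 of them called it. The largest fold change of the tested members was that of Cluster-23216.0, a unigene alone in its assembly cluster, singled out after its values were seen. This unigene had also reached the filter in the libraries at 5 psu alone. Cluster-23216.0 had 22, 12 and 32 counts at 5 psu and 2, 1 and 3 at 15 psu, a log2 fold change of 3.40 (SE 0.73, edgeR adjusted p = 0.0563). Both were called in the fit that kept low counts, Cluster-8005.118339 with an edgeR adjusted p of 0.0156 and Cluster-23216.0 with one of 0.00629, the lowest of a range up to 0.304 over its alternatives.

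Across the whole list the levels at 5 psu were more often above than below those at 15 psu. Of the 263 members, 175 (66.5%) had the higher mean CPM at 5 psu, where 49.1% of the unigenes that met the 6-library part of the rule but had counts at 25 psu did. In the list silent at 5 psu, 68 of 95 had a higher mean CPM at 25 than at 15 psu, so a lean to the opposite extreme was not particular to the members. In the list silent at 15 psu, 20 of 49 had a higher mean CPM at 25 than at 5 psu. The 3 libraries at 5 psu lay above all 3 at 15 psu for 37 members (14.1%), where 7.22% of the 57469 unigenes meeting the 6-library part did, and below them for 12 members (4.56%), where 8.82% did. The median fitted log2 fold change of all members without the filter was 0.39, against -0.01 for the unigenes with counts at 25 psu. For 181 members the highest of the 6 libraries was at 5 psu, and replicate 1 at that salinity was highest for 84 of them. Without that library, which had the lowest TMM factor (0.926), 162 members had the higher mean at 5 psu. With library totals in place of TMM scaling 170 did. For the highest library and for these 2 settings the shares of other unigenes were not computed. Those numbers are therefore not read as a trait of the members.

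Most members with no overlap had few counts, with Cluster-8005.5488, Cluster-8005.118339 and Cluster-23216.0 among the exceptions. At the high end, Cluster-8005.7640 had 16, 11 and 19 counts at 5 psu and 1, 2 and 3 at 15 psu (edgeR adjusted p = 0.13), and Cluster-8005.132937 had 11, 13 and 20 counts at 5 psu and 2, 4 and 3 at 15 psu (edgeR adjusted p = 0.192). In the opposite direction, Cluster-8005.95351 had 1, 1 and 1 counts at 5 psu and 8, 6 and 10 at 15 psu, too few for the filter. Cluster-8005.119134 had 11, 8 and 12 counts at 5 psu and 15, 17 and 27 at 15 psu (log2 fold change -0.88, SE 0.48, edgeR adjusted p = 0.477). These 4 were singled out after their values were seen. None of the 3 that were tested passed edgeR's test, while limma on log2(FPKM + 1) called Cluster-8005.132937 (adjusted p = 0.0054) and Cluster-8005.7640 (adjusted p = 0.0147), and limma on log2(FPKM + 0.1) called Cluster-8005.132937 (adjusted p = 0.0287). Cluster-8005.132937 and Cluster-8005.7640 had reached the filter in the libraries at 5 psu alone, so nothing is read from these calls.

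**Figure D4:**
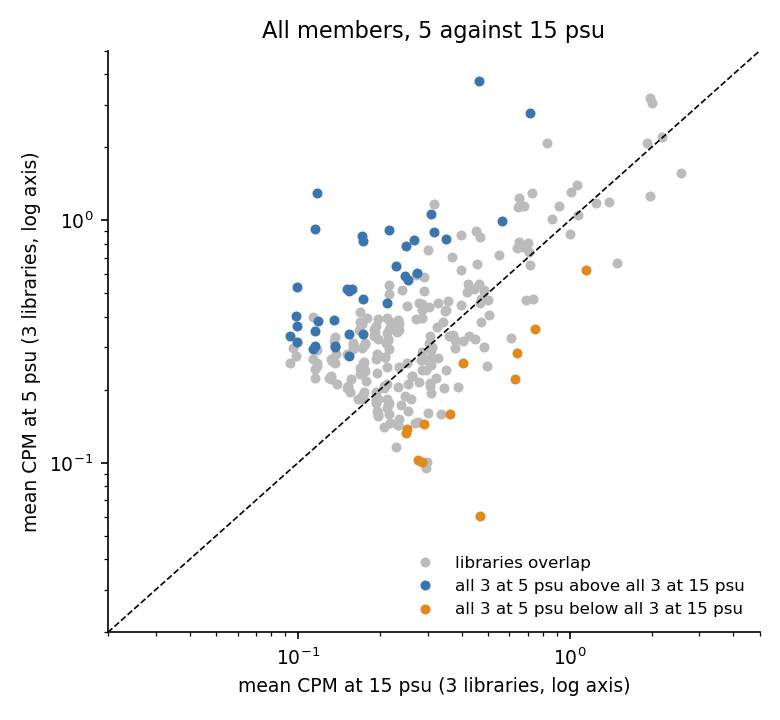
Mean CPM at 5 psu (vertical axis) against mean CPM at 15 psu (horizontal axis) for the 263 members, 3 libraries each, both axes logarithmic. Blue points are the 37 members with all libraries at 5 psu above all at 15 psu, orange points the 12 with all below; the dashed line marks equal means, and 175 members lie above it.

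In the contrasts that the rule used, the same fit called 24 members lower at 25 than at 15 psu, where 0.679% of all unigenes tested were lower, and 45 lower at 25 than at 5 psu, where 4.63% were. The rule fixed the direction of these, and nothing is read from them.

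Effective length, which the rule did not use, was estimated from the deposited count and FPKM. In members it had a median of 668 nucleotides (interquartile range 451 to 1170), against 729 (381 to 1280) in the 57206 unigenes that met the 6-library part of the rule and had counts at 25 psu. Unigenes silent at 5 psu had a median of 636 and those silent at 15 psu one of 959. The comparison set is more abundant than the members, and the lengths were not tested. Of the members, 7 had an effective length under 100 nucleotides, which is not the length of the assembled sequence. The 4 shortest by effective length were Cluster-8005.57806 (16.8 nucleotides), Cluster-8005.143215 (46.4), Cluster-8005.5488 (54.2) and Cluster-8005.81425 (54.8). The 4 longest by effective length were Cluster-8005.134401 (4308 nucleotides), Cluster-8005.127938 (4295), Cluster-8005.120409 (4099) and Cluster-8005.156345 (3874).

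The 4 members of longest effective length had more counts than most of the list. Cluster-8005.134401 had 11, 17 and 12 counts at 5 psu and 14, 9 and 13 at 15 psu, and was at least 11.2-fold lower at 25 than at 15 psu. Cluster-8005.127938 had 30, 19 and 14 counts at 5 psu and 19, 25 and 9 at 15 psu, and Cluster-8005.120409 had 14, 24 and 28 at 5 psu and 20, 10 and 7 at 15 psu. In these 3 the libraries at 5 and 15 psu overlapped, with log2 fold changes of 0.19, 0.35 and 0.84 (edgeR adjusted p = 0.93, 0.843 and 0.54). Cluster-8005.156345 was more uneven, with 1, 18 and 16 counts at 5 psu and 10, 21 and 46 at 15 psu. The other 3 of the shortest had 1 to 8 counts in a library.

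Estimated counts that are not whole show that reads were divided among unigenes. Over the 6 libraries at 5 and 15 psu, 147 members (55.9%) had at least 1 such value, against 59.2% of the unigenes with counts at 25 psu and 73.3% of all unigenes tested. Over their own 6 libraries the numbers were 57 of 95 for the list silent at 5 psu and 41 of 49 for that silent at 15 psu. Variation among the 6 libraries was wide. The highest CPM of a member was a median of 5.06 times its lowest (interquartile range 3.32 to 7.17), and in the unigenes with counts at 25 psu, which are more abundant with a median mean of 11.7 counts, it was 3.04 times (2.17 to 4.88). In the lists silent at 5 and at 15 psu, over their own 6 libraries, it was 5.18 and 5.28 times.

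Of the members, 206 (78.3%) fell in Cluster-8005, against 89.4% of the unigenes that met the 6-library part of the rule and had counts at 25 psu. The share was 77.9% in the list silent at 5 psu and 79.6% in that silent at 15 psu, so it was not particular to the members. The other 57 members fell in small assembly clusters, 44 of them alone in theirs and 13 with other unigenes. Those 13 clusters held 25 other unigenes, called partners here, whose counts the rule did not use. Reads may be divided between a member and its partners, so their counts are not separate measurements. Only 3 partners had enough counts to be tested, all in Cluster-39636. At 25 against 15 psu, 0 of these 3 were called, where 2.35% of all unigenes tested were (edgeR adjusted p under 0.05), and 0 had an unadjusted p under 0.05. DESeq2's Wald test and limma-voom called 0 as well.

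The partners were not all silent at 25 psu. In 11 of the 13 clusters some partner had counts at 25 psu, and in 2 none had. In Cluster-15897, Cluster-19762, Cluster-52463 and Cluster-58431 no partner had more than 2 counts there in all, within the floor of 3 counts that silence allows. Most of the partner counts at 25 psu lay in Cluster-39636 and Cluster-20775. Of the 25 partners, 17 had counts at 25 psu, 6 had counts at 5 or 15 psu alone and 2 had none in any library. Summed over all partners, the libraries held 74, 105 and 107 counts at 5 psu, 87, 116 and 106 at 15 psu and 52, 59 and 74 at 25 psu. The highest library at 25 psu equalled the lowest at 5 psu and lay below the 3 at 15 psu. Of the 21 partners with counts at 5 or 15 psu, 20 had a lower mean CPM at 25 than at 15 psu. This count leaves out, by its own condition, the 2 partners counted at 25 psu alone, which were higher there. Of the unigenes that met the 6-library part of the rule and had counts at 25 psu, 59.5% had a lower mean there. Partners were not held to that part of the rule, so the shares are from unlike sets.

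In Cluster-20775 the member and its partner had opposite patterns, noticed after the values were seen. Cluster-20775.0, the member, had 26, 11 and 19 counts at 5 psu, 7, 13 and 27 at 15 psu and 0 in each library at 25 psu. Cluster-20775.1, the partner, had 0 in each of the 6 libraries at 5 and 15 psu and 1, 13 and 16 counts at 25 psu. Their implied effective lengths were close, 899 nucleotides for the member and 866 for the partner. The partner failed the filter on low counts, and in the fit that kept such counts it was called higher at 25 than at 15 psu (edgeR adjusted p = 0.0339). With 0 counts at 15 psu its fitted fold change is no bound.

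Cluster-39636 held a pair of the same kind beside 5 other unigenes. The member Cluster-39636.6 had 3, 11 and 6 counts at 5 psu, 4, 7 and 4 at 15 psu and 0 in each library at 25 psu. Its partner Cluster-39636.3 had 0 in each library at 5 and 15 psu and 9, 5 and 1 counts at 25 psu. The effective lengths were 1155 nucleotides for the member and 1008 for this partner. The 3 tested partners, Cluster-39636.0, Cluster-39636.4 and Cluster-39636.5, had counts in all 9 libraries, with log2 fold changes at 25 against 15 psu of -0.73 (SE 0.47), -0.92 (SE 0.55) and -0.34 (SE 0.54), which did not pass the test.

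**Figure D5:**
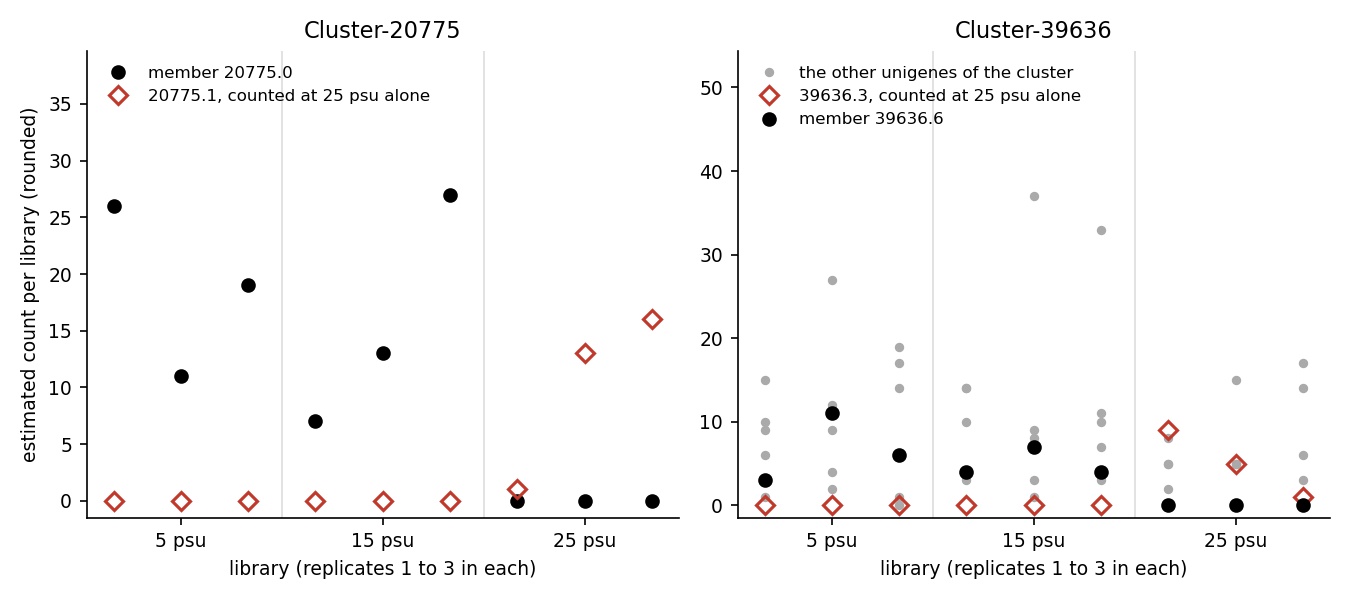
Rounded estimated counts per library (vertical axis) for the unigenes of 2 small assembly clusters, with the libraries at 5, 15 and 25 psu along the horizontal axis. Filled black circles are the members, at 0 in all libraries at 25 psu; open red diamonds are the partners counted there alone, with 1, 13 and 16 counts in Cluster-20775 and 9, 5 and 1 in Cluster-39636; grey points are the other unigenes.

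Such a pair, with a partner of at least 10 counts in all that were confined to the salinity at which the other was silent, was found for 2 of the 13 members in these clusters. Among the 2151 unigenes of small clusters that met the 6-library part of the rule but had counts at 25 psu, 4 had such a partner. For the same rule at 5 psu the numbers were 0 of 6 silent and 2 of 1984 not silent, and at 15 psu 0 of 1 silent and 10 of 1984 not silent. These numbers are too small to compare and are given as a description. Members of Cluster-8005 could not be searched in this way, since the cluster holds most of the assembly.

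Partners in the other clusters had low counts or none. In Cluster-35834 the member Cluster-35834.0 had 7, 6 and 10 counts at 5 psu and 3, 4 and 4 at 15 psu, and 1 partner, Cluster-35834.2, kept 4, 4 and 9 counts at 25 psu. The other partner, Cluster-35834.1, had 8, 14 and 5 counts at 5 psu, 0, 0 and 4 at 15 psu and 0 in each library at 25 psu. In Cluster-21092 the member Cluster-21092.1 had 3, 5 and 3 counts at 5 psu and 14, 7 and 11 at 15 psu, while the partner Cluster-21092.2 had 0, 0 and 7 counts at 5 psu, 0, 13 and 11 at 15 psu and 8, 1 and 0 at 25 psu, so its libraries were uneven at each salinity.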

How the data were processed

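RNA sequencing of whole juveniles gave 9 libraries, 3 at each salinity. For each library the authors deposited a table that lists, per the file headers, the expected count and the FPKM of every unigene. The submitters' processing notes name RSEM and Bowtie2 and give no versions. How the unigenes were assembled or filtered is not given in the sources used here. Between 25.0 and 27.6% of the expected counts in a library were not whole.

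Estimated counts were rounded to whole numbers (0.5 to the even number) and the rule was applied to them. The members, lists and tests were chosen with earlier results of these data known. Tests used edgeR 4.0.16 (R 4.3.3; quasi-likelihood, robust, TMM factors, filterByExpr with a count minimum of 10, 71915 unigenes) on all 9 libraries and 3 groups, with Benjamini-Hochberg adjustment over all unigenes. The test and the rule were checked on simulated data. Each standard error is the fold change over the square root of F. Effective length was computed as the summed count per total divided by the summed FPKM of the 9 libraries. Library offsets use unigenes that averaged 2000 counts or more. Total counts lay between 15897903 and 18427234. Floors of 3 counts cover counting error only, and not the choice of members by their zeros. Replicate pairs had a chi-square of 4.24 to 18.5 per degree of freedom, above counting noise.

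Named members were the 10 of largest sum, those called at 5 against 15 psu, the 4 shortest and 4 longest, up to 6 with a called partner (there were 0) and those 2 on each side of a limit. On the upper side of the sum 1 unigene was found. Others are said to have been singled out later. Alternatives were DESeq2 1.42.0, limma 3.58.1, other scalings, filters and limits of the rule, a replicate block and leaving out each library.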

Additional observations from a re-analysis of the deposited data

How the results depend on the processing

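The number of members depended on the limits of the rule. It was 453, 122 and 40 with a minimum mean of 2, 5 and 10, 629 with 1 count allowed in all at 25 psu, and 2606 with no minimum per library. The same changes gave 174, 43, 14, 246 and 1998 unigenes for 5 psu and 107, 25, 8, 113 and 912 for 15 psu, so 25 psu had the highest number under each. Leaving out each library gave 313 to 790 members, with 790, 677 and 682 without replicates 1, 2 and 3 at 25 psu, where fewer zeros are asked for. Thinning gave 241, exact zeros 257 and rounding 0.5 upward, chosen after the data were seen, 264.

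The count of members called at 5 against 15 psu was 1. The 47 tested gave 8 with limma on log2(FPKM + 1) and 3 with limma on log2(FPKM + 0.1), where 3.23% and 2.88% of all unigenes were called. Both of these fits used the same filter, so entry again depended on the difference tested. Nothing is read from their counts. The count was 3 of 263 without the filter (0.99% of all) and 0 of 6 with a count minimum of 30 (5.91% of all). It was 0 of 47 with the length offset as a covariate, chosen after the data were seen (1.81% of all). Without each library in turn it was 0 to 2 of 50 to 64 members tested (1.38 to 2.92% of all). With the replicate block it was 1 of 47 (2.26% of all). With only the 6 libraries at 5 and 15 psu in the fit it was also 1, where 1.94% of all unigenes were called. That member was Cluster-23216.0 and not Cluster-8005.5488. Same-numbered libraries deviated together at correlations of -0.017 to 0.106, and 1 of 9 pairs exceeded 0.1, so libraries of 1 number were treated as unpaired. The count of partners called was 0, except for 1 of 23 without the filter, where 0.918% of all unigenes were called.

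The counts with no overlap between 5 and 15 psu, 37 higher and 12 lower, were 53 to 60 and 16 to 27 without each library, where fewer libraries must separate. The shares over all unigenes meeting the 6-library part were then 11.5 to 13.1% higher and 13.4 to 14.8% lower, against 7.22% and 8.82% with all libraries. After thinning they were 32 and 7, where 5.53% and 7.71% of the unigenes meeting the 6-library part did so. Among named members that did not pass the test, the sign turned for Cluster-8005.145571 (0.01, and -0.04 with library totals), Cluster-8005.68889 and Cluster-8005.170132. Leaving out each library gave -0.28 to 0.35, -0.22 to 0.88 and -0.51 to 0.05 for these. Counts near the floor limit what can be said of any single member, and the causes of these changes were not tested.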

Other observations

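The opposite rule, chosen after the data were seen, asked for unigenes present in each of 3 libraries with a mean of at least 3 there and at 0 in the other 6. It found 103 unigenes at 5 psu, 49 at 15 psu and 40 at 25 psu, and between 15 and 103 over the 83 choices other than the libraries at 25 psu, with a median of 31. In order of size 25 psu was 17 of 84 by this rule, while it was 1 of 84 for silence. The 2 counts share libraries and were not tested against each other.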
